A study of Mus musculus with 16 samples.

Results

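The genes described here are 9 genes of antigen presentation on major histocompatibility complex (MHC) class II, taken by name from the 49585 gene identifiers in the 2 deposited count tables. They are H2-Aa, H2-Ab1 and H2-Eb1, the chains of the class II molecules, Cd74, their invariant chain, H2-DMa and H2-DMb1, the chains of the peptide exchange factor H2-DM, Ciita, the class II transactivator, Cd86, a costimulatory ligand, and Flt3, a cytokine receptor. All 9 were found in both tables and all passed the filter on low counts in every comparison. They are named in a fixed list with no threshold on a measured value, and the list was drawn up with earlier results of these data known.

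RNA was sequenced from bones of C57BL/6 mice aged 8 to 12 weeks, as total RNA, in 16 libraries of 4 groups with 4 libraries each. The P2KO group was Vav:cre-PHD2f/f, a deletion of PHD2, the prolyl hydroxylase that marks hypoxia-inducible factors for degradation. The P2H2KO group was Vav:cre-PHD2/HIF2ff/ff, a joint deletion of PHD2 and of the hypoxia-inducible factor HIF2. The P2WT and P2H2WT groups were the wild-type controls of the 2 lines, and the labels do not say whether these controls carried the Cre transgene or floxed alleles. Vav:cre acts in blood cells of all lineages, so the deletions were not limited to neutrophils, the cells the submitters describe as sorted. The labels name no animal per library, and the p-values below therefore measure the spread between libraries.

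MHC class II molecules are pairs of an alpha and a beta chain that carry peptides from endocytosed proteins to the surface of B cells, dendritic cells and macrophages. The invariant chain Cd74 fills the groove until the protease Ctss degrades it, and H2-DM then exchanges the remaining fragment for peptide, a step that H2-DO restrains in B cells. Ciita has no DNA-binding domain of its own and acts on the X and Y boxes of class II promoters through the RFX, CREB and NF-Y factors. C57BL/6 mice have a disrupted H2-Ea gene and make no I-E molecule.

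The promoter sequences are shown because these genes are known for the shared X and Y boxes and because the members fell into separate groups of covariation, given further on. RefSeq windows of GRCm38.p6 from 250 bases before to 50 bases after the start were searched for H2-Aa, H2-Eb1, H2-DMa, H2-DMb1 and Flt3. H2-Ab1, Cd74, Ciita and Cd86 were not matched. The X box was searched as TAGNNACNGATG and the Y box as CCAAT, each on both strands. The X box letters were in 51 of 32817 windows (0.155%) and the Y box letters in 12270 (37.4%). An X box followed by a Y box starting within 40 bases stood in 5 windows (0.0152%), and 2 of these belonged to H2-Eb1 and H2-DMb1. The Y box is read as ATTGG on the strand shown, and capitals mark it and any 12 letters that match at least 8 of the 9 fixed X box letters. The H2-Eb1 stretch is chr17:34305758-34305822 and that of H2-DMb1, cut to the X box, is chr17:34153086-34153115, both on the plus strand.
H2-Eb1: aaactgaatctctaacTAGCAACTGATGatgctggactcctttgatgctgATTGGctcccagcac
H2-DMb1: aggtttaccTAGTAACTGATGatgctaggc
The related class II genes H2-DMb2 (chr17:34145109-34145173), H2-Ob (chr17:34238798-34238862) and H2-Eb2 (chr17:34325525-34325589), all on the plus strand, each match 8 of the 9 letters, while the closest letters in the window of the related H2-Oa match 5.
H2-DMb2: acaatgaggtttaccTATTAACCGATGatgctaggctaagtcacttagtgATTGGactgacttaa
H2-Ob: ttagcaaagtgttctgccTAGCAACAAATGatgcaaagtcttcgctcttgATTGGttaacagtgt
H2-Eb2: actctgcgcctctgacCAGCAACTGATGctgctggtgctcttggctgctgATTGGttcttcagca
The H2-Aa stretch, chr17:34287857-34287921 on the minus strand, has the Y box, and its closest 12 letters in the same spacing match 4 of the 9.
H2-Aa: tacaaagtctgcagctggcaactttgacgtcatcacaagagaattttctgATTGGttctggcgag
A stretch with at least 8 of the 9 letters, 15 to 35 bases before ATTGG, was in 18 windows (0.05485%), a search chosen after the sequences had been seen. Of those 18 windows, 5 belonged to the class II genes just printed, and 2 windows, those of H2-Eb1 and H2-DMb1, matched all 9 letters. From the X box's first base, H2-DMb1 and H2-DMb2 differ there by G3T and T8C (H2-DMb1 first), and the 30 bases shown for H2-DMb1 are identical to H2-DMb2 at 28. Part of the H2-DMb1 stretch is annotated as UTR of a transcript in GENCODE M21. No X box letters were found in the windows of H2-Aa, H2-DMa or Flt3, which says only that these letters are not there.

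Libraries held 23450746 to 28601284 counts, of which the 9 members took 0.0816% to 0.161%. The libraries held much more than neutrophil RNA: summed over each list, neutrophil markers reached 35212 to 89806 CPM (counts scaled to the library total), erythroid markers 25950 to 53025, monocyte markers 2591 to 7705 and B lineage markers 1074 to 2658. Dendritic cell markers summed to 1072 to 1578 and macrophage markers to 1077 to 1860 CPM, and no gene of these lists was at 0 in every library of a group. Level differences below cannot tell fewer cells of a type from less RNA per cell. Counts over the whole gene of the targeted Egln1 (PHD2) were at 49.5 ± 6.40 CPM in P2KO and 48.7 ± 2.21 in P2WT (SD, n = 4), and 53.2 ± 4.39 in P2H2KO and 52.2 ± 2.97 in P2H2WT. Epas1 (HIF2α) stood at 5.65 ± 2.17 CPM in P2H2KO and 3.56 ± 1.02 in P2H2WT, so gene totals, which do not resolve the deleted exons, do not check the labels. Of 11 hypoxia target genes tested, a list chosen with earlier results known, 4 were called higher in P2KO, where 0.0437% of all genes were called. In P2H2KO 8 of the 11 were called higher, where 0.0744% of all genes were called.

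Per kilobase of exon, Cd74 was the most abundant member in all 4 groups, with a P2WT level of 304 ± 57.2 CPM per kb (SD, n = 4). H2-Eb1 followed at 68.9 ± 13.1, H2-Ab1 at 56.7 ± 8.83 and H2-Aa at 46.7 ± 8.71 CPM per kb. These neighbours differed by about their spread between libraries or less. That spread was largely shared, with pairwise r of 0.96 to 0.99 after group means were removed. The H2-DM chains were lower, at 17.7 ± 2.73 for H2-DMa and 14.8 ± 2.53 for H2-DMb1. Flt3 at 4.85 ± 0.415 and Cd86 at 4.32 ± 0.359 CPM per kb differed by about their spread, and Ciita was the lowest at 1.76 ± 0.271. The order of the 9 genes was the same in P2KO, P2H2WT and P2H2KO. Lengths were unions of all annotated exons (3798 bases for H2-Aa, 2568 for H2-Ab1, 1944 for H2-Eb1), not lengths of expressed transcripts. Without division by length these chains stood in reverse order in P2WT, at 177, 145 and 134 CPM. Within a library the CPM ratio ran from 1.14 to 1.33 for H2-Aa to H2-Ab1 and from 1.03 to 1.18 for H2-Ab1 to H2-Eb1.

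**Figure D1:**
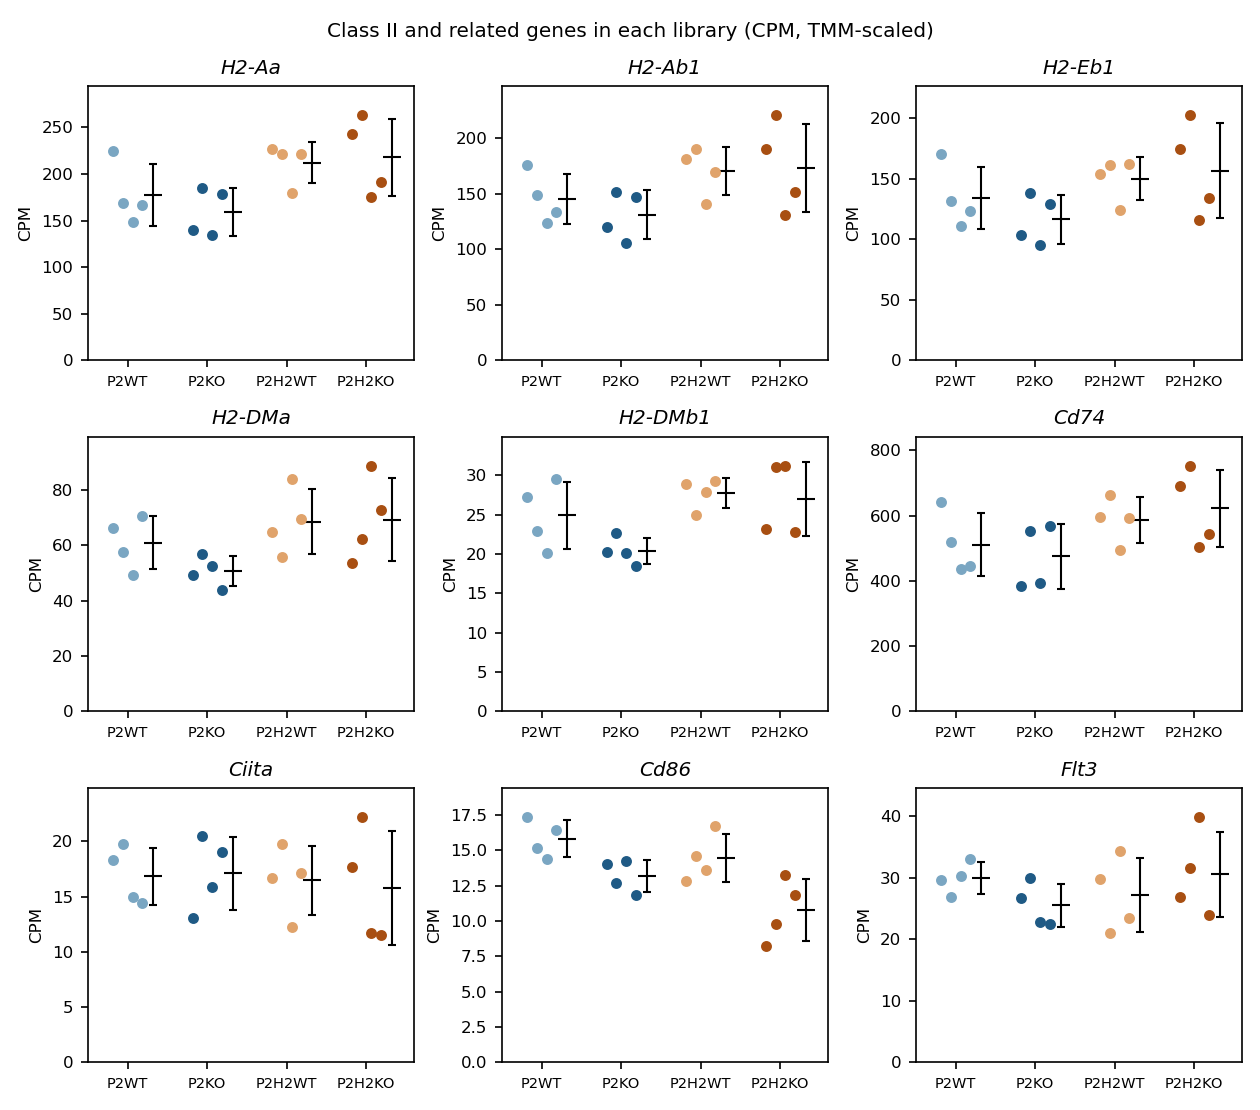
CPM (vertical axis, from 0, TMM-scaled) of each member in each library, by group. Points are libraries and the bars beside them are the mean and SD of 4 libraries; Cd86 is the member whose P2KO libraries all lie under the P2WT libraries.

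The class II chains and Cd74 did not differ detectably between deleted and control libraries in either line. H2-Aa, the alpha chain of I-A (ENSMUSG00000036594, chromosome 17, 34282744 to 34287823, minus strand, GRCm38), was at 140.3, 185, 134 and 178 CPM in P2KO libraries 1, 5, 6 and 9. It was at 225, 169, 148 and 167 CPM in P2WT libraries 10, 3, 4 and 7. The groups overlap, and P2WT library 10 is the highest of the 8. In the double deletion line H2-Aa stood at 242, 263, 175 and 191 CPM in P2H2KO libraries 11, 12, 15 and 17. The P2H2WT libraries 13, 14, 16 and 18 had 226, 221, 179.5 and 221 CPM, within the P2H2KO range. By edgeR's quasi-likelihood test the log2 fold change of H2-Aa was -0.14 (SE 0.15) in P2KO and 0.041 (SE 0.14) in P2H2KO.

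H2-Ab1, the I-A beta chain (ENSMUSG00000073421, chromosome 17, 34257689 to 34269419, plus strand), averaged 131 ± 22.0 CPM in P2KO and 145 ± 22.7 in P2WT (SD, n = 4). It averaged 173 ± 39.7 in P2H2KO and 170.4 ± 21.7 in P2H2WT. H2-Eb1, the beta chain of I-E (ENSMUSG00000060586, chromosome 17, 34305867 to 34316674, plus strand), averaged 116 ± 20.5 CPM in P2KO and 134 ± 25.5 in P2WT. It averaged 157 ± 39.1 in P2H2KO and 150.1 ± 17.9 in P2H2WT. Its partner chain was not seen: H2-Ea-ps, the disrupted alpha gene, was at 0 in all 16 libraries. Cd74 (ENSMUSG00000024610, chromosome 18, 60803848 to 60812652, plus strand) was at 383, 553, 395 and 569.5 CPM in P2KO and 643, 520.5, 435 and 444 in P2WT, in the library order above. It was at 692, 751, 503 and 545 CPM in P2H2KO and 597, 663, 494 and 594 in P2H2WT. For all 3 genes 2 deleted libraries lay above and 2 below their controls' median in each line. Their log2 fold changes ran from -0.19 (H2-Eb1) to -0.095 (Cd74) in P2KO and from 0.027 (H2-Ab1) to 0.087 (Cd74) in P2H2KO. The 95% intervals were wide, from -0.55 to 0.16 for H2-Eb1 in P2KO and from -0.25 to 0.42 for Cd74 in P2H2KO.

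Ciita (ENSMUSG00000022504, chromosome 16, 10480059 to 10528418, plus strand), whose product switches class II genes on, was low and even between groups. It was at 13.1, 20.5, 15.9 and 19.0 CPM in P2KO and 18.3, 19.7, 14.9 and 14.4 in P2WT. It was at 17.7, 22.2, 11.7 and 11.5 CPM in P2H2KO and 16.7, 19.8, 12.3 and 17.2 in P2H2WT. The groups overlap throughout, with log2 fold changes of 0.035 (95% interval -0.32 to 0.39) in P2KO and -0.061 (-0.58 to 0.46) in P2H2KO. Its exons overlap Dexi on the opposite strand by 329 bases, and the use of strand in counting is not given in the sources used here.

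The H2-DM chains were lower in P2KO than in P2WT, by less than the test could call. H2-DMa (ENSMUSG00000037649, chromosome 17, 34119541 to 34139101, plus strand) was at 49.3, 56.6, 52.4 and 44.0 CPM in P2KO and 66.3, 57.6, 49.3 and 70.5 in P2WT. H2-DMb1 (ENSMUSG00000079547, chromosome 17, 34153072 to 34160230, plus strand) was at 20.2, 22.6, 20.2 and 18.5 CPM in P2KO and 27.3, 22.9, 20.1 and 29.6 in P2WT. For both chains all 4 P2KO libraries lie under the P2WT median, and P2WT library 4 sits among them. The log2 fold change was -0.26 (SE 0.12, 95% interval -0.53 to 0.016) for H2-DMa and -0.28 (SE 0.12, -0.56 to -0.0038) for H2-DMb1, with adjusted p = 0.99999 for both by edgeR. Unadjusted p-values under 0.05 were reached by 3.49% of the 13734 genes tested and by 2 of the 9 members, H2-DMb1 and Cd86. In P2H2KO, H2-DMa averaged 69.2 ± 15.03 CPM against 68.5 ± 11.7 in P2H2WT, and H2-DMb1 27.04 ± 4.71 against 27.8 ± 1.93 (SD, n = 4). The exons of H2-DMa overlap Brd2 on the opposite strand by 360 bases, and H2-DMb1 shares 95.7% of 1081 transcript bases with H2-DMb2, so reads of these genes may have been shared or dropped.

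Cd86, the ligand of CD28 and CTLA-4 on antigen-presenting cells, was lower in the deleted libraries of both lines. It was at 14.02, 12.7, 14.3 and 11.9 CPM in P2KO and 17.3, 15.1, 14.4 and 16.4 in P2WT. The P2KO libraries all lie under the P2WT libraries, with a gap of 14.3 to 14.4 CPM at the border. Groups that did not overlap were found for 318 of 14080 genes (2.26%) in this comparison. In P2H2KO, Cd86 was at 8.27, 9.79, 13.3 and 11.8 CPM, and in P2H2WT at 12.8, 14.6, 13.6 and 16.7. All 4 P2H2KO libraries lie under the P2H2WT median and 1, library 15, overlaps the controls. Non-overlapping groups were found for 1.78% of genes there. The log2 fold change was -0.25 (SE 0.093, 95% interval -0.46 to -0.040) in P2KO, with adjusted p = 0.99999 by edgeR. It was -0.42 (SE 0.15, 95% interval -0.76 to -0.082) in P2H2KO, with adjusted p = 0.9999. In P2H2KO, 2.63% of 13435 genes and 1 of the 9 members, Cd86, had an unadjusted p under 0.05.

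The mean of both genotype effects was added after these values had been seen. For Cd86 it was -0.34 (SE 0.091, 95% interval -0.53 to -0.15) in a fit of all 16 libraries, with adjusted p = 0.350 by edgeR. Over its alternatives that adjusted p ran from 0.0949 (DESeq2) to 0.680, so Cd86 was called in none. Of all genes tested 0.17% were called for this mean (20 higher and 4 lower), and no member was. Cd86 (ENSMUSG00000022901, chromosome 16, 36603869 to 36666081, minus strand) is expressed by macrophages and monocytes, and macrophage markers were lower beside it. Their list was lower for 14 of 15 genes in P2KO (median log2 fold change -0.29) and for 15 of 15 in P2H2KO (median -0.44, 12 with unadjusted p under 0.05). Its summed level was 1250 to 1708 CPM in P2KO, 1568 to 1860 in P2WT, 1077 to 1420 in P2H2KO and 1372 to 1713 in P2H2WT. The scavenger receptor Marco (-1.82) and the sialic acid receptor Siglec1 (-0.71) had the smallest p-values of the list in P2H2KO, with adjusted p = 0.0965 and 0.779 by edgeR. For the mean effect the list was lower for 15 of 15 genes (median -0.37), and 2 were called. These were Siglec1 at -0.65 (adjusted p = 0.0259) and Marco at -1.29 (adjusted p = 0.0480), by edgeR. Marco is a low-count gene, with a mean under 1 CPM over the libraries. In P2KO alone Siglec1 was at -0.59 (95% interval -0.86 to -0.32) and Marco at -0.75 (-1.59 to 0.084). With group means removed, Cd86 had r = -0.064 with the macrophage list over 16 libraries. The part of these markers in the Cd86 difference was not tested. Over all genes the median log2 fold change was 0.020 in P2KO and 0.0011 in P2H2KO.

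Flt3, the receptor through which FLT3 ligand acts on progenitors and dendritic cells (ENSMUSG00000042817, chromosome 5, 147330741 to 147400489, minus strand), was at 26.7, 29.9, 22.8 and 22.5 CPM in P2KO. The P2WT libraries had 29.7, 26.8, 30.3 and 33.1 CPM. All 4 P2KO libraries lie under the P2WT median, and the groups overlap through P2KO library 5 and P2WT library 3. In P2H2KO it was at 26.9, 31.6, 39.8 and 24.0 CPM and in P2H2WT at 29.8, 21.04, 34.3 and 23.5. The groups overlap in part, and 3 of 4 P2H2KO libraries lie above the P2H2WT median. The log2 fold changes were -0.22 (SE 0.10, 95% interval -0.46 to 0.013) in P2KO and 0.17 (SE 0.19, -0.26 to 0.60) in P2H2KO.

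Of all genes tested, 0.0437% were called in P2KO against P2WT (6 of 13734) and 0.0744% in P2H2KO against P2H2WT (10 of 13435), and no member was among them. The members were lower in 8 of 9 cases in P2KO, with a median log2 fold change of -0.19, where 42.2% of all genes tested were below 0. They were lower in 3 of 9 cases in P2H2KO, with a median of 0.027, where 49.5% of all genes were below 0. The difference between the 2 lines' effects was tested for each gene in a fit of all 16 libraries. It was called for 0 of 14080 genes (0%), with 212 genes at an unadjusted p under 0.05, and DESeq2 also called 0. Of the members, Flt3 had the largest difference, at -0.40 (SE 0.23, 95% interval -0.90 to 0.092, adjusted p = 0.9995 by edgeR), followed by H2-DMa at -0.28. The interval of Cd86's difference was -0.23 to 0.55.

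**Figure D2:**
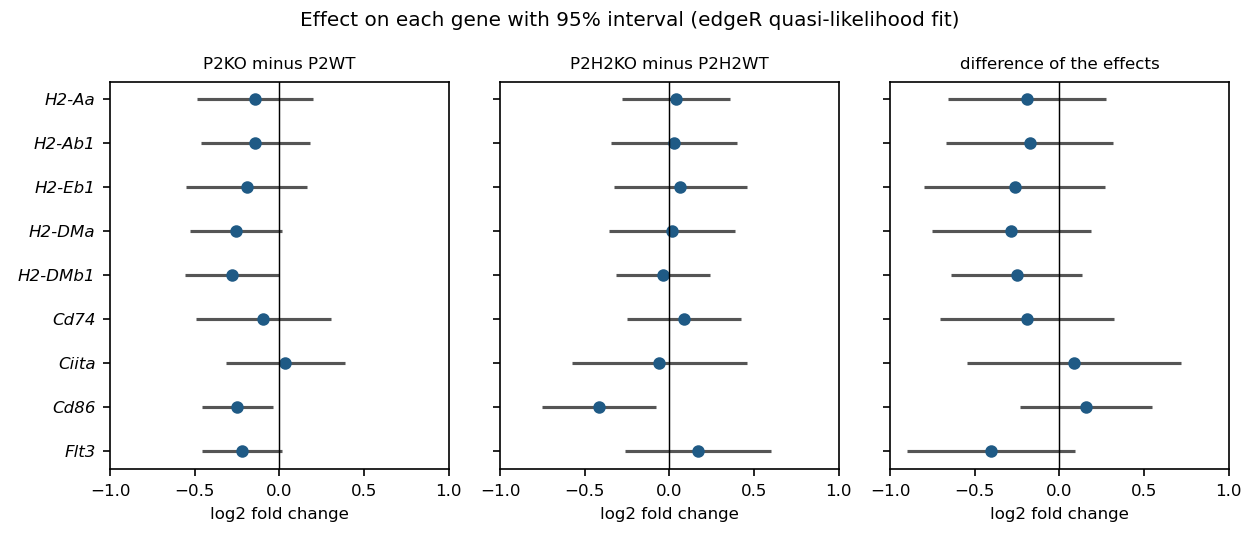
Log2 fold change of each member (horizontal axis) with its 95% interval from the edgeR fit, for P2KO minus P2WT, P2H2KO minus P2H2WT and the difference of these effects. Only Cd86 has intervals that leave out 0 in both lines, and H2-DMb1 does so in P2KO alone; no adjusted p passed 0.05.

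The controls of the 2 lines were compared with each other. In P2WT against P2H2WT 1.22% of 13593 genes were called, 148 higher and 18 lower (17 and 15 in a fit of all 16 libraries), and again no member. H2-Aa had the smallest p of the members, with a log2 difference of -0.26 (SE 0.13, adjusted p = 0.476 by edgeR), and 6 of 9 members were lower in P2WT. Epas1, a targeted gene, was higher in P2WT, at 10.03 ± 1.40 CPM against 3.56 ± 1.02 in P2H2WT (SD, n = 4), with a log2 difference of 1.49 (SE 0.19, adjusted p = 0.00764 by edgeR). Of 9 endothelial markers 8 were called higher in P2WT (median log2 difference 1.46). The part of these differences in the members' values was not tested. Line, count table and any difference in when the libraries were made cannot be told apart here.

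Of 16 tested accessory genes, 0 were called in either line. Most of them process antigen, edit peptide loading or costimulate, and the list also holds H2-Eb2, March1 and Il10ra. In P2KO 15 of the 16 were lower (median log2 fold change -0.14). Ctss, the protease that trims Cd74, was at 265 ± 18.5 CPM in P2KO and 329 ± 44.1 in P2WT (SD, n = 4), a log2 fold change of -0.30 (SE 0.10, adjusted p = 0.99999 by edgeR). Il10ra, a chain of the interleukin 10 receptor, had -0.18 (SE 0.058) and Lgmn, an endosomal protease, -0.21 (SE 0.094). In P2H2KO 10 of the 16 were lower (median -0.058), with Lgmn at -0.29 (SE 0.086, adjusted p = 0.9999 by edgeR) and Ctss at -0.011. The costimulatory Cd80 had log2 fold changes of -0.34 and 0.11, Cd40 -0.20 and -0.21, and Cd83 -0.084 and -0.19 in P2KO and P2H2KO. The H2-DO chains had -0.13 and -0.019 (H2-Oa) and 0.045 and -0.20 (H2-Ob).

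A list for class II transcription held factors that act on class II promoters and also the receptor chains Ifngr1 and Ifngr2, Ezh2 and Prdm1. No gene of this list was called in either line. Of 16 tested, 9 were higher and 7 lower in each line, with medians of 0.027 in P2KO and 0.0037 in P2H2KO, and none had an unadjusted p under 0.05. The RFX subunits Rfx5, Rfxap and Rfxank lay between -0.021 and 0.14 in both lines, and the NF-Y subunits Nfya, Nfyb and Nfyc between -0.090 and 0.063. Of the interferon pathway, Irf1 had -0.16 in P2KO and 0.086 in P2H2KO. For class I presentation, 12 of 12 genes were lower in P2KO (median -0.20, 0 called) and 8 of 12 in P2H2KO (median -0.016). Among them H2-K1 had -0.35 (SE 0.13), the class I transactivator Nlrc5 -0.37 (SE 0.13) and B2m -0.29 (SE 0.12) in P2KO, with adjusted p = 0.99999 for each by edgeR.

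The members also varied between libraries of one group. Group means were removed from log2 CPM, and each member was set against the mean of the class II core, H2-Aa, H2-Ab1, H2-Eb1 and Cd74, a core gene against the other 3. These correlations are descriptions over 16 libraries with no test, and all values of a library are scaled by the same TMM-adjusted total. The core genes had r of 0.96 to 0.99. Within a library the H2-Aa to H2-Ab1 CPM ratio stayed between 1.14 and 1.33 and that of H2-Aa to Cd74 between 0.313 and 0.379. Over the same libraries the summed core ranged from 729 CPM in P2KO library 6 to 1436 in P2H2KO library 12.

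Ciita varied with the core (r = 0.87, rho = 0.79). The r was 0.77 over 8 libraries of the P2 line, 0.97 over 8 of the P2H2 line and 0.91 without the 2 libraries farthest from the median. The other members did not vary with the core in the same way. H2-DMb1 had r = 0.15, H2-DMa -0.40, Cd86 -0.41 and Flt3 -0.26. For H2-DMa the lines differed, with 0.26 in the P2 line and -0.87 in the P2H2 line. In the P2H2 line the 3 libraries with the lowest core sums, at 926, 938 and 1022 CPM, are those whose titles end in f, a suffix the labels do not explain. In the P2 line the 3 such libraries had 868, 1024 and 1214 CPM, within the range of the others or above it. With group and suffix means removed the r of H2-DMa over 16 libraries was -0.35 and that of Ciita 0.91.

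**Figure D3:**
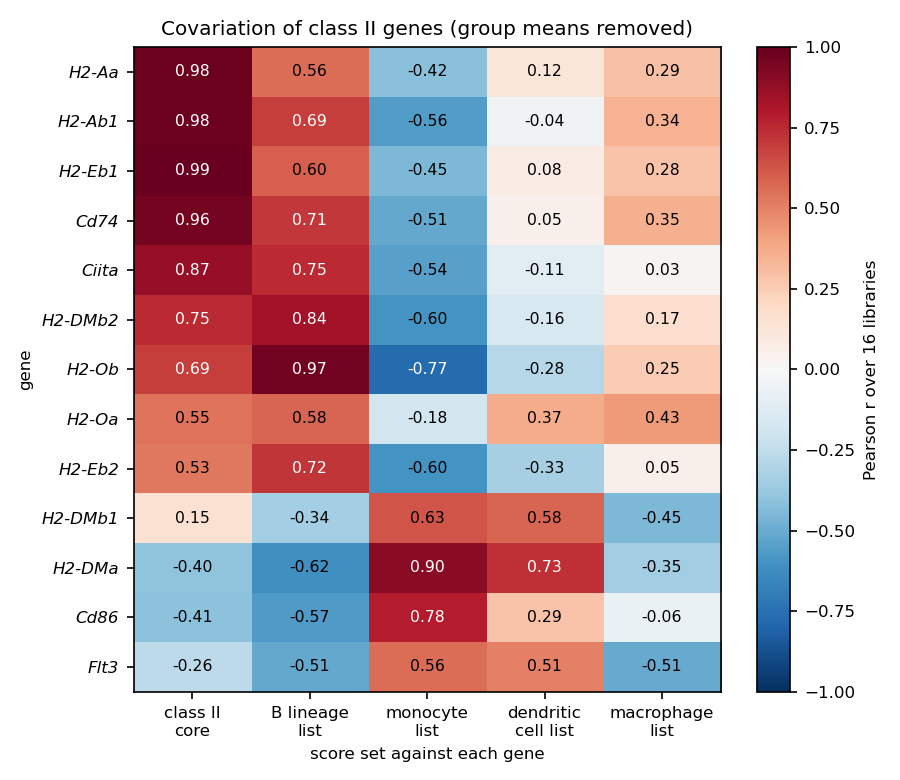
Pearson r over 16 libraries, group means removed, of each gene (rows) with the class II core and with 4 marker lists (columns). The core genes, Ciita, H2-DMb2 and H2-Ob are positive with the core and the B lineage list, while H2-DMa, Cd86, H2-DMb1 and Flt3 are positive with the monocyte list. Of the lists not shown, progenitor (0.77) and T and NK cell (0.72) had a higher r with the core than B lineage (0.65).

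H2-DMa instead varied with the monocyte list (r = 0.90, rho = 0.88), with 0.91 in each line and 0.84 without the 2 farthest libraries. Its r with the dendritic cell list was 0.73. Cd86 had r = 0.78 with the monocyte list (rho = 0.72), 0.79 in the P2 line and 0.78 in the P2H2 line. Without the 2 farthest libraries it was 0.61. Cd86 also had r = 0.64 with the neutrophil list, 0.82 in the P2 line and 0.67 in the P2H2 line, and -0.75 with the erythroid list. H2-DMb1 had r = 0.63 and Flt3 0.56 with the monocyte list, and the latter was 0.36 without the 2 farthest libraries. A pair of P2H2KO libraries, whose titles end in f (15) and m (12), shows levels of the monocyte list, H2-DMa and H2-Aa. The opposite run of H2-Aa belongs to the P2H2 line: its r with the monocyte list was -0.70 there and 0.015 in the P2 line. P2H2KO library 15 had the highest monocyte sum of its group at 7705 CPM, the highest H2-DMa at 88.4 CPM and the lowest H2-Aa at 175 CPM. P2H2KO library 12 had 4642 CPM of monocyte markers, 62.1 CPM of H2-DMa and the highest H2-Aa at 263 CPM. Of the pathway genes outside the members, Ctss (r = 0.98) and the thiol reductase Ifi30 (r = 0.94) varied with the monocyte list too. In genotype effects the monocyte list was lower for 14 of 15 genes in P2KO (median -0.27, 5 with unadjusted p under 0.05) and higher for 9 of 15 in P2H2KO (median 0.026). Its sum was 2591 to 4396 CPM in P2KO and 3984 to 5440 in P2WT, and its part in the lower H2-DM, Ctss and Cd86 values of P2KO was not tested.

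The beta chains of H2-DM parted from each other. H2-DMb2, the near-identical neighbour of H2-DMb1, averaged 10.999 ± 2.08 CPM in P2KO, 11.2 ± 1.98 in P2WT, 10.8 ± 2.05 in P2H2KO and 12.5 ± 1.87 in P2H2WT (SD, n = 4). It had r = 0.75 with the core, 0.84 with the B lineage list and -0.60 with the monocyte list. H2-DMb1 had 0.15, -0.34 and 0.63 with the same scores. Between the 2 genes r was -0.17, and the H2-DMb1 to H2-DMb2 CPM ratio ran from 1.45 to 3.66. Their X box stretches, printed above, differ by the 2 letters given there, of which only G3T lies on a fixed X box letter. H2-Eb1, which matches all 9 letters as H2-DMb1 does, had r = 0.99 with the core, and H2-Aa, which matches 4, had 0.98. The part of X box letters in the covariation was not tested. H2-Ob, the H2-DO beta chain of B cells, was with H2-DMb2 (r = 0.93) and the B lineage list (r = 0.97), and H2-DMa with H2-DMb1 (r = 0.66) rather than with H2-DMb2 (r = -0.49). Reads shared between the near-identical genes would act on both values.

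**Figure D4:**
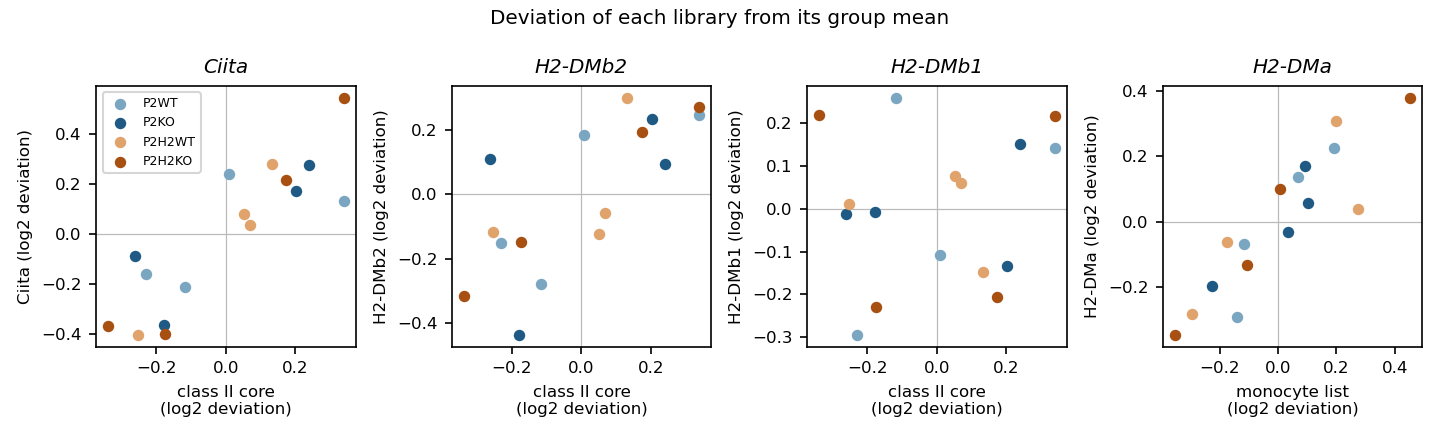
Deviation of each library from its group mean (log2): Ciita, H2-DMb2 and H2-DMb1 against the class II core, and H2-DMa against the monocyte list. Each point is a library, coloured by group; Ciita and H2-DMb2 rise along the core axis (r = 0.87 and 0.75), H2-DMb1 does not (r = 0.15), and H2-DMa rises along the monocyte axis (r = 0.90).

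The core itself had r = 0.65 with the B lineage list, 0.77 with the progenitor list, 0.72 with the T and NK cell list and 0.54 with the erythroid list. It had -0.49 with the monocyte list, at -0.11 in the P2 line and -0.73 in the P2H2 line. Its r was -0.47 with the neutrophil list, 0.32 with the macrophage list and -0.0019 with the endothelial list. The endothelial value differed by line: the core genes had 0.54 to 0.66 in the P2 line and -0.90 to -0.85 in the P2H2 line. With the dendritic cell list the core had 0.83 in the P2 line and -0.51 in the P2H2 line. The B lineage list was lower in P2H2KO for 21 of 21 genes (median log2 fold change -0.32, 1 with unadjusted p under 0.05, 0 called), while the core genes stood at 0.027 to 0.087 there. In P2KO 16 of 21 B lineage genes were higher (median 0.060). The dendritic cell list was lower for 17 of 23 genes in P2KO (median -0.045) and higher for 18 of 23 in P2H2KO (median 0.11), with 0 called. The neutrophil list was higher for 16 of 16 genes in P2H2KO (median 0.19, 0 called).

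The genes most like the core were ranked among 12072 genes with a mean of at least 1 CPM, the 9 members left out, whose median r was 0.0059. Only 21 of them (0.174%) had r of at least 0.8. The highest was Serpina3g at 0.91, a serine protease inhibitor, followed by the chemokine Cxcl16 at 0.87 and the immunoglobulin genes Iglv1 at 0.87 and Igha at 0.86. Nck2 and Slamf9 had 0.86, BC043934 0.85, and the class I-like H2-Q6 and Txnrd3 0.84. Rbm15b, Pdgfb and Cttnbp2nl had 0.83, and Krba1, Rab4a and Ccdc57 0.82. Of the related class II genes, H2-DMb2 ranked 74 and H2-Ob 199 in this list. H2-Oa, the partner chain of H2-Ob, ranked 1285 (r = 0.55) and H2-Eb2 1444 (r = 0.53).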

How the data were processed

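Total RNA of 16 libraries was sequenced, and the authors deposited 2 tables of raw counts per gene, 1 per line, per the file headers. HTSeq and mm10 are named in the submitters' processing notes. The aligner, annotation release and use of strand are not given in the sources used here. Symbols from GENCODE M21 matched 49326 of 49585 identifiers, and the 259 others held 0.00714% of counts. No 2 libraries of a group agreed within sampling noise (smallest chi-square per degree of freedom 11.5).

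In edgeR 4.0.16, low counts were removed by filterByExpr, libraries scaled by TMM and genes tested with the quasi-likelihood test (glmQLFit, robust), two-sided, with Benjamini-Hochberg adjustment over all genes at 0.05. Each line was fitted alone, and the difference and the mean of the effects in a fit of 16 libraries. DESeq2 1.42.0, other filters and scalings and the title suffix (m or f) as a covariate were alternatives, as was leaving out each library. The test was checked on simulated counts. CPM used TMM over 16 libraries, and covariation used log2 CPM with a prior count of 2. Sequence identity between transcripts came from blastn 2.17.0, kept from 200 bases and 90% identity. Coordinates and exon lengths are of GENCODE M21 (GRCm38), promoters of RefSeq GRCm38.p6.

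The members and gene lists were chosen with earlier results of these data known. Named were all members, genes of the accessory and transcription lists, at most 4 genes with unadjusted p under 0.05 of any other list, and the 15 genes most like the core.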

Additional observations from a re-analysis of the deposited data

Results flagged for a closer look

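H2-Aa in P2H2WT library 16 stood apart from the other controls of its line, at 179.5 CPM where the nearest library had 221 CPM. The gap was 0.883 of the group's range, above Dixon's 95% critical value for 4 samples. In all, 36 groups of 4 libraries were examined, and chance flags about 1 group in 20, so 1 flag is not more than chance gives.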

How the results depend on the processing

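No member was called under any of the 756 alternative values of its log2 fold change, and the smallest adjusted p was 0.0949 (Cd86, mean effect, DESeq2). The sign turned in 49 of them, all but 3 on leaving out 1 library. Leaving out each library, values in P2KO ran from -0.20 to 0.040 for Cd74 and -0.061 to 0.14 for Ciita. In P2H2KO they ran from -0.063 to 0.13 for H2-Aa, -0.11 to 0.14 for H2-Ab1, -0.084 to 0.19 for H2-Eb1, -0.12 to 0.13 for H2-DMa, -0.11 to 0.038 for H2-DMb1, -0.016 to 0.18 for Cd74 and -0.27 to 0.064 for Ciita. For Ciita they ran from -0.089 to 0.13 between controls and -0.048 to 0.28 for the difference. For the mean effect they ran from -0.11 to 0.011 for H2-Aa, -0.058 to 0.055 for Cd74, -0.12 to 0.040 for Ciita and -0.11 to 0.035 for Flt3. The r of H2-DMb1 with the core ran from -0.020 (without P2H2KO library 12) to 0.39 (without P2H2KO library 15). With the suffix as covariate H2-DMa in P2H2KO moved to -0.10, Ciita there to 0.078 and the difference for Ciita to -0.039. Genes called were 22 (DESeq2) and 10 (fit of 16 libraries) in P2KO, 39 (DESeq2) in P2H2KO and 65 (DESeq2) for the mean. For the controls they were 87 (at least 10 counts in every library), 389 (DESeq2) and 32 (fit of 16 libraries). Leaving out each library gave 4 to 6 calls in P2KO, 6 to 9 in P2H2KO (6 without P2H2WT library 13), 76 to 167 for the controls (76, 77, 96 and 96 without P2WT libraries 10, 3, 4 and 7, and 99 without P2H2WT library 16), 15 to 30 for the mean (15 without P2WT library 4) and 0 for the difference. No paired analysis was possible because the groups share no replicate numbers.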
